A study of Mus musculus with 16 samples.

Results

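Transcripts of 33 genes of the selenoproteins and of the selenocysteine machinery were followed in RNA-seq counts from liver and heart of mice. The genes were taken from a list of gene symbols that was matched to the Ensembl identifiers of the count table. All 33 were found among the 48709 identifiers. By role they comprised secreted selenoprotein P, 4 glutathione peroxidases, 3 thioredoxin reductases, 3 iodothyronine deiodinases, 7 selenoproteins of the endoplasmic reticulum and 3 small redox-fold or mitochondrial selenoproteins. The others were 5 genes of selenocysteine synthesis, 4 genes of its insertion, the receptor Lrp2 and 2 selenium-binding proteins. The animals were untreated female C57BL/6J mice aged 3 to 6 months. They were either wild type (WT) or quadruple knockouts of the methionine sulfoxide reductase (Msr) genes (QKO). Liver and heart came from the same 8 animals, 4 per genotype, which gave 4 groups of 4 libraries of ribosome-depleted total RNA. The labels do not say how the alleles were made, and they name no other allele or agent in either genotype.

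Selenocysteine is an amino acid that carries selenium in place of the sulfur of cysteine. It is encoded by UGA, which otherwise ends translation. In mammals the UGA is read through with the help of a stem-loop in the 3' untranslated region of the mRNA (the SECIS element), its binding protein, and an elongation factor that brings the selenocysteine tRNA. Selenoproteins reduce peroxides, keep thioredoxin reduced and activate or inactivate thyroid hormone. The liver makes selenoprotein P and secretes it into plasma, from which other organs take up selenium. One methionine sulfoxide reductase, Msrb1, is itself a selenoprotein, and was followed here as a gene of the wider pathway.

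Of the 33 members, 22 have annotated selenocysteine codons and 11 do not. The windows below show where the codon sits in the members with the highest levels or the largest tissue differences, and in the 3 thioredoxin reductases. They were read 5' to 3' from the coding sequences of GENCODE M21 transcripts, with up to 12 bases on each side and positions on GRCm38. The capitals mark the selenocysteine codon, written as TGA in DNA letters. In Gpx1, Gpx3 and Gpx4, enzymes that reduce hydroperoxides with glutathione, the codon lies well inside the coding sequence and is followed by G. In Dio1 and Dio2, which remove iodine from thyroid hormone, the shown codon is followed by C. In the thioredoxin reductases it is the codon before the last one, directly ahead of the closing amino acid and the stop. Selenow and 4 other members (Selenoh, Selenom, Selenoo and Selenot) have a cysteine codon 3 codons before the selenocysteine.
Selenop site 1 (chr15:3274848-3274850): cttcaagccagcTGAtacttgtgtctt
Selenop site 2 (chr15:3279342-3279344): cacttagagagcTGAgacaccacagca
Gpx1 (chr9:108339451-108339453): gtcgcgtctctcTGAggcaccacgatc
Gpx3 (chr11:54907256-54907258): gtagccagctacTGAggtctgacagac
Gpx4 (chr10:80054737-80054739): gtggcctcgcaaTGAggcaaaactgac
Dio1 (chr4:107297700-107297702): ggcagttgcaccTGAccttcatttctt
Dio2 site 1 (chr12:90729823-90729825): ggttcagccaccTGAccacctttcact
Txnrd1 (chr10:82896037-82896039): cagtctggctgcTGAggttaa
Txnrd2 (chr16:18477772-18477774): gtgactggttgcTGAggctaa
Txnrd3 (chr6:89674789-89674791): cagaaaggctgcTGAggctag
Selenow (chr7:15920464-15920466): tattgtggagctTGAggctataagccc
Sephs2 (chr7:127273731-127273733): ggcatgaagggcTGAggctgcaaggtc

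Selenop holds 10 such codons and Dio2 holds 2, and each of the other 20 genes holds 1. All 32 codons coincide with an annotated selenocysteine. In Selenop, codon 59 of 380 is the first and the other 9 lie between codons 259 and 377, all of them in the last exon. Sephs2, the selenophosphate synthetase that is itself a selenoprotein, carries the codon at position 63 of 452 in its single coding exon. The first selenocysteine codon lies more than 50 bases before the last exon junction in 13 genes, a position at which a stop codon can mark an mRNA for nonsense-mediated decay, and in the last exon or closer to the junction in 9.

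Total depth spanned similar ranges in liver and heart, while the share of ribosomal RNA loci differed more within heart. Total counts per library ran from 37.9 to 67.9 M in liver and from 42.1 to 72.6 M in heart. Counts on protein-coding genes ran from 21.6 to 40.7 M in liver and from 9.21 to 28.2 M in heart. The share of ribosomal RNA loci was 0.315% to 0.98% in the livers and 31.4% to 56.9% in 6 of the hearts. The hearts of replicate 4 stood apart, with 7.37% (WT) and 0.245% (QKO). Levels below are counts-per-million values (CPM), with TMM-normalised library sizes (trimmed mean of M-values). The sum of 10 hepatocyte markers was 30580 to 43440 CPM in the livers, and the sum of 8 cardiomyocyte markers was 15070 to 18840 CPM in the hearts, as the tissue labels say. The 10 hepatocyte markers were also detected in all 8 hearts, at a summed 50.9 to 307.1 CPM in WT and 67.8 to 164.1 CPM in QKO. Pancreatic acinar markers reached 435.5 CPM in WT liver 3 and 124.3 CPM in WT liver 4, against 0.572 to 1.65 CPM in the other livers. Of the targeted genes, Msrb2 fell by 7.04 and 6.40 on the log2 scale in QKO liver and heart, and Msrb3 fell by 1.99 and 2.62 (edgeR quasi-likelihood test, adjusted p = 0.00194 or lower). Msra fell by 0.52 in heart (adjusted p = 0.0263), and its change of -0.72 in liver did not pass (adjusted p = 0.0867). Msrb1 rose in heart and did not pass in liver, with values given among the pathway genes. Counts over a whole gene do not show which of its exons an allele lacks.

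Levels of different genes were compared after division by exon length, as CPM per kb. The length was that of all annotated exons of a gene, merged. It exceeds the longest transcript for some genes (Gpx4 1724 against 995 bases, Selenof 5819 against 2699) and equals it for others (Selenow, 736). The order of the genes and the shares below depend on this choice. In WT liver the highest level was that of Selenop, at 792 ± 64.7 CPM per kb (mean ± SD, n = 4). Gpx1, the cytosolic glutathione peroxidase, followed at 544.5 ± 31.7, and Sephs2 at 179 ± 24.2 CPM per kb. The libraries of these 3 genes did not overlap with those of the next gene in the order. Gpx4, which reduces lipid hydroperoxides in membranes, stood at 67.4 ± 17.3, Dio1 at 60.8 ± 15.5 and Selenbp1 at 56.2 ± 21.7 CPM per kb, and each of these 3 overlapped with the next gene in the order, which after Selenbp1 was Selenow at 33.7 ± 5.72. From rank 8, Selenof at 15.9 ± 3.89 CPM per kb, every gene overlapped with the next down to rank 14, Txnrd1 at 7.17 ± 0.504, which did not overlap with rank 15, Sepsecs.

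Heart had another order. Gpx4 led the WT heart at 65.5 ± 7.13 CPM per kb, followed by Selenop at 35.1 ± 2.73 and Selenow, a small selenoprotein of muscle, at 24.0 ± 2.30. These 3 did not overlap with their neighbours. Gpx1 at 14.6 ± 0.683, the secreted peroxidase Gpx3 at 14.3 ± 2.04, Selenot at 11.5 ± 1.12 and Selenbp1 at 10.2 ± 0.918 CPM per kb followed, each overlapping with the next except Selenbp1, which did not overlap with Selenof. The first 7 ranks were held by the same genes in QKO heart, in the same order. At the bottom, Gpx2, a peroxidase of the gut epithelium, had 0 counts in all 8 hearts and at most 0.0982 CPM in liver. Dio3, which inactivates thyroid hormone, reached at most 0.078 CPM in liver and 0.0288 CPM in heart.

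**Figure D1:**
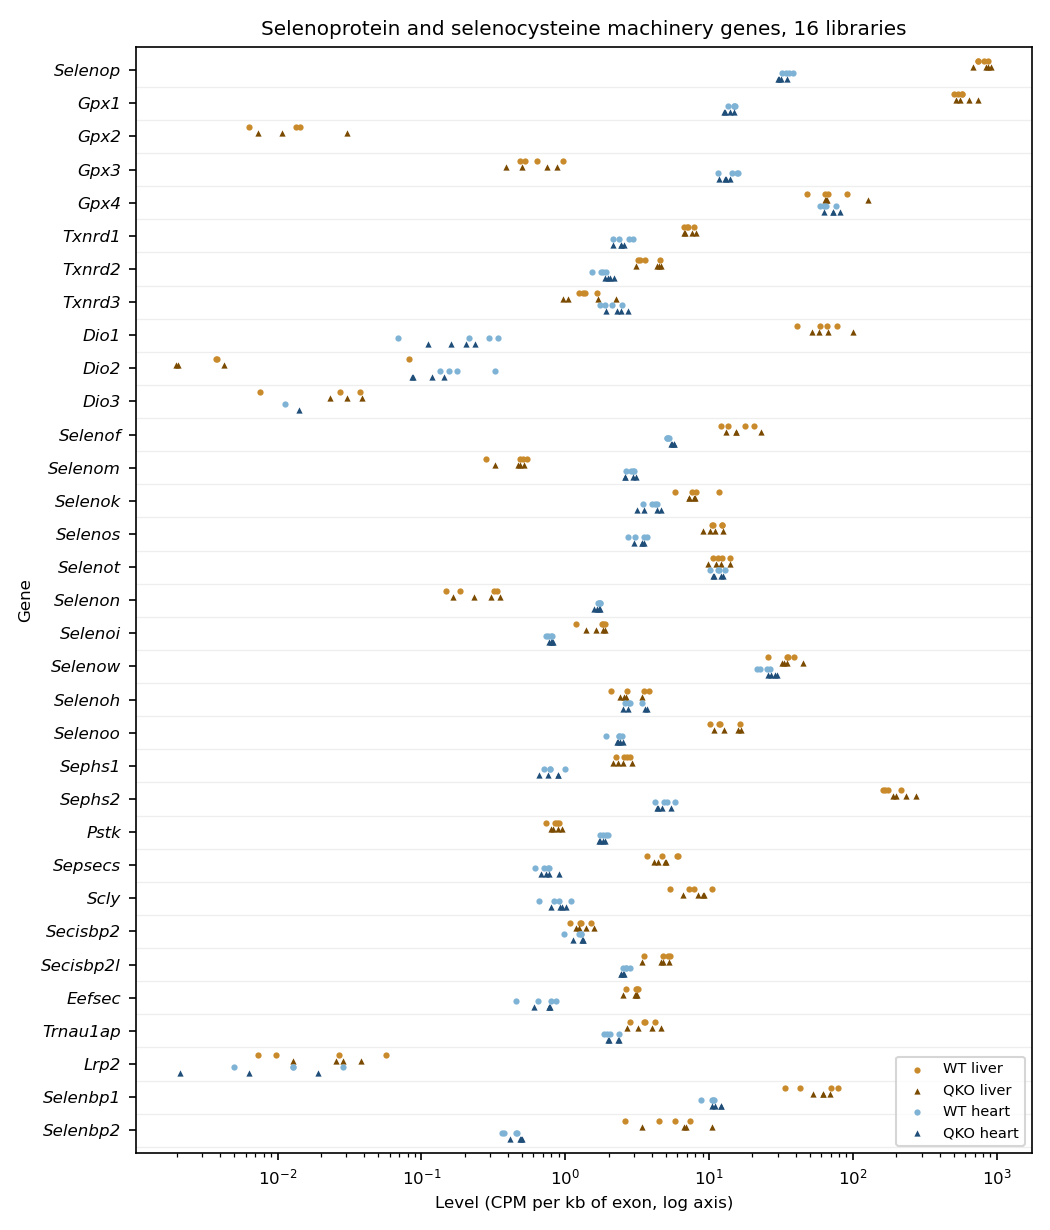
Level of each of the 33 members in every library, in CPM per kb of exon on a log axis, with liver and heart and both genotypes marked. The plot holds 507 points and leaves out 21 library values with 0 counts; WT and QKO points lie close together for most members, while liver and heart separate widely for Selenop, Gpx1, Sephs2, Dio1 and Gpx3.

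The share of each gene in the summed level of the 22 genes with a selenocysteine codon was then computed per library. The sum was 1756 ± 107 CPM per kb in WT liver, 1925 ± 256 in QKO liver, 199.8 ± 4.86 in WT heart and 205 ± 6.05 in QKO heart. In WT liver Selenop held 45.1% ± 1.25 of it and Gpx1 31.0% ± 0.821, so that both together made up 76.1% ± 1.34. In WT heart both together made up 24.9% ± 1.59, and Gpx4 alone held 32.7% ± 2.80, against 3.85% ± 1.08 in WT liver. Without Selenop and Gpx1 the summed level was 419.8 ± 27.3 CPM per kb in WT liver and 150.1 ± 6.24 in WT heart. Each level was then multiplied by the number of selenocysteine codons in the gene. Selenop held 89.1% ± 0.478 of the codons of these 22 genes in WT liver and 68.0% ± 2.46 in WT heart. The codon shares in QKO were 88.2% ± 1.20 in liver and 64.7% ± 2.28 in heart. These are shares of transcripts by level and length, and no translation was measured. The selenoproteins Msrb1 and Selenov are not among the 22 genes, so the sums and shares leave out their transcripts.

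**Figure D2:**
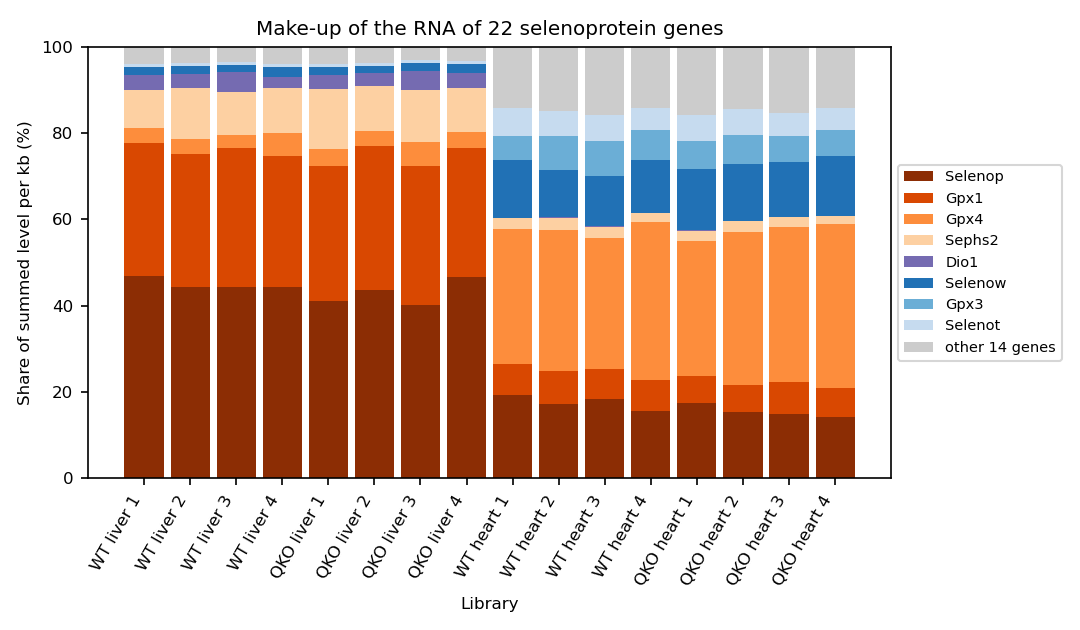
Share of the summed per-kb level of the 22 genes with a selenocysteine codon, in percent, as 1 stacked bar per library (8 livers, then 8 hearts). On average Selenop and Gpx1 make up 76.1% of the sum in WT liver and 24.9% in WT heart, where Gpx4 holds 32.7%.

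The tissue comparison asked how the members are divided between heart and liver of the same animals. In WT, 26 of the 31 members tested passed the threshold (edgeR quasi-likelihood test, Benjamini-Hochberg adjusted over all genes, 0.05), against 72.5% of all genes tested. Of these, 6 were higher in heart and 20 lower, where 35.6% of all genes tested were called higher and 36.9% lower. The median log2 difference, heart over liver, was -1.04 over the members and -0.02 over all genes. In QKO, whose libraries the WT comparison did not use, 27 of 31 passed, 6 higher and 21 lower, against 74.3% of all genes (37.2% higher and 37.1% lower), with medians of -1.04 and 0.01. Groups did not overlap for 25 of the members in WT, against 68.4% of all genes, and for 25 in QKO, against 70.3%. In whole tissue, fewer cells of a type and less RNA per cell cannot be told apart. The 2 tissues of each animal were fitted without the animal as a block, and the block changed no member's call.

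**Figure D3:**
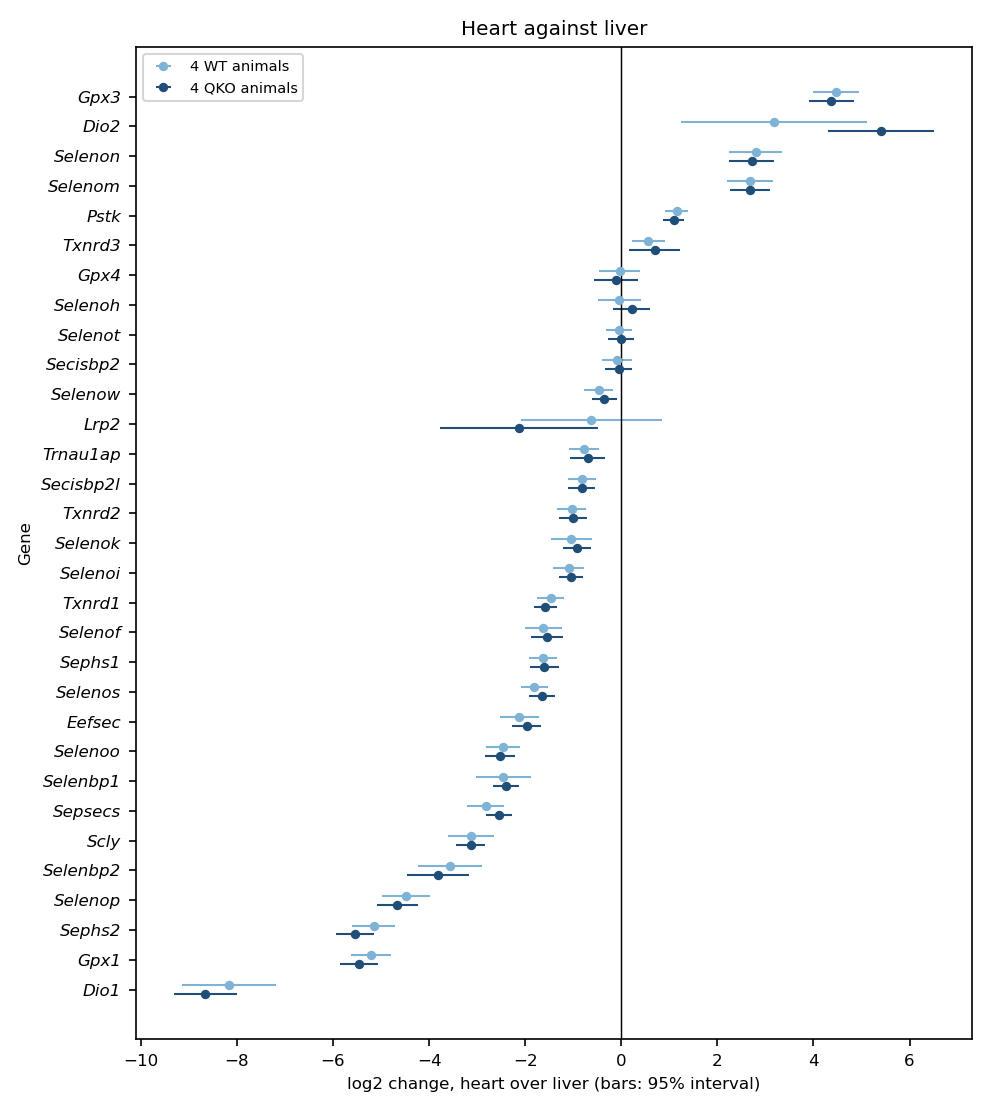
Log2 difference of heart over liver for the 31 members tested, in WT and in QKO animals, with 95% intervals. Gpx3, Dio2, Selenon, Selenom, Pstk and Txnrd3 lie to the right of 0 in both genotypes, and Dio1, Gpx1, Sephs2 and Selenop lie farthest to the left.

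Selenop (chr15:3268547-3280508, GRCm38) had 2479, 2321, 2096 and 2108 CPM in WT livers 1 to 4 and 1944, 2384, 2597 and 2446 in QKO livers 1 to 4. In heart it had 109.3, 97.6, 101 and 90.7 CPM in WT and 99.2, 90.2, 85.3 and 86.4 in QKO. Every liver was far above every heart, and the mean in heart was 4.43% of that in liver in WT and 3.85% in QKO. The log2 difference was -4.48 (SE 0.226, adjusted p = 1.77e-08, edgeR) in WT and -4.66 (SE 0.197, adjusted p = 2.39e-10) in QKO. The 10 hepatocyte markers stood in heart at 0.294% (Serpina1c) to 0.635% (Ass1) of their liver level in WT, and at 0.172% to 0.419% in QKO, below the percentage of Selenop.

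Among the glutathione peroxidases, Gpx1 (chr9:108338903-108340343) was low in heart and Gpx3 (chr11:54902453-54910377) high. Gpx1 had 823.7, 818.5, 769.2 and 726.8 CPM in WT livers 1 to 4 and 750.7, 920.9, 1058 and 799.5 in QKO livers. In hearts it had 21.3, 21.7, 19.6 and 21.6 CPM in WT and 18.3, 18.7, 21.4 and 20.2 in QKO. The tissues did not overlap, and the log2 difference of Gpx1 was -5.21 (SE 0.190, adjusted p = 2.60e-09, edgeR) in WT and -5.46 (SE 0.184) in QKO. Gpx3, the peroxidase secreted into plasma, had 0.88, 0.957, 1.14 and 1.73 CPM in WT livers and 0.907, 1.58, 0.702 and 1.36 in QKO livers. Its heart values were 20.7, 28.4, 28.8 and 26.2 CPM in WT and 23.7, 25.3, 21.4 and 23.5 in QKO. Every heart exceeded every liver, with a log2 difference of 4.47 (SE 0.219, adjusted p = 1.45e-08, edgeR) in WT and 4.37 (SE 0.211) in QKO. Gpx4 was not called, with 116 ± 29.8 CPM in WT liver and 113 ± 12.3 in WT heart, groups that overlapped. Its log2 difference was -0.03 in WT (SE 0.192, 95% interval -0.45 to 0.39, adjusted p = 0.895, edgeR) and -0.12 in QKO (SE 0.210).

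The deiodinases divided by tissue. Dio1 (chr4:107291465-107307169), which activates thyroid hormone in liver, had 130, 116, 153 and 80.3 CPM in WT livers and 102, 114, 196 and 133 in QKO livers. In hearts it had 0.668, 0.581, 0.424 and 0.136 CPM in WT and 0.314, 0.461, 0.399 and 0.22 in QKO. The log2 difference of Dio1 was -8.17 (SE 0.445, adjusted p = 3.06e-08, edgeR) in WT and -8.66 (SE 0.303, adjusted p = 4.39e-11) in QKO, the lowest of all members. Its mean in heart was 0.377% of that in liver in WT and 0.256% in QKO, inside the range of the hepatocyte markers given above. The part of hepatocyte transcripts in the heart counts of Dio1 was not tested. Dio2 (chr12:90724552-90738438), which activates thyroid hormone in brain, brown fat and pituitary, was detected in every heart, at 0.906, 0.788, 1.87 and 1.02 CPM in WT and 0.837, 0.691, 0.505 and 0.499 in QKO. In livers Dio2 had 0, 0.022, 0.0216 and 0.475 CPM in WT and 0.0115, 0.0245, 0 and 0.0117 in QKO, so that WT liver 4 stood apart from the other 7. The log2 difference of Dio2 was 3.18 (SE 0.874, adjusted p = 0.00677, edgeR) in WT and 5.41 (SE 0.507, adjusted p = 6.68e-07) in QKO. Without WT liver 4 the WT difference was 5.90 (adjusted p = 2.11e-06). WT liver 4 also had the highest sums among livers of the skeletal muscle markers (87.2 CPM, others 0.281 to 8.29), of the cardiomyocyte markers (35.3 CPM, others 6.21 to 21.3) and of the adipocyte markers (20.8 CPM, others 0.0205 to 3.86). Its brown adipocyte marker sum was 3.10 CPM, inside the range of all livers (0.633 to 3.77). Of these markers, Elovl3 had means of 1.72 CPM in WT livers and 2.44 in QKO livers, and Ucp1 0.529 and 0.00867. The part of these cell types in the Dio2 counts of WT liver 4 was not tested.

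Of the 3 thioredoxin reductases, which keep thioredoxin reduced, Txnrd1 (cytosolic) and Txnrd2 (mitochondrial) were lower in heart and Txnrd3 higher. The WT log2 differences were -1.47 (SE 0.128), -1.03 (SE 0.134) and 0.56 (SE 0.154, adjusted p = 0.00683, edgeR). In QKO they were -1.58, -0.998 and 0.69, with an adjusted p of 0.0205 for Txnrd3. The QKO call of Txnrd3 was lost without QKO liver 3 (adjusted p = 0.0563), QKO liver 4 (0.0573) or QKO heart 4 (0.0632).

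The endoplasmic reticulum selenoproteins went both ways: 2 of 7 were called higher and 4 lower in heart, in either genotype, where 72.5% of all genes were called in WT (35.6% higher, 36.9% lower) and 74.3% in QKO. Selenom, a thioredoxin-fold protein of the reticulum, had 0.757, 0.418, 0.712 and 0.797 CPM in WT livers and 0.482, 0.699, 0.722 and 0.761 in QKO livers. Its hearts had 3.94, 4.44, 4.24 and 4.37 CPM in WT and 4.39, 4.58, 3.85 and 3.85 in QKO, all above every liver. The log2 difference of Selenom was 2.68 in WT (SE 0.216) and 2.68 in QKO (SE 0.191). Selenon, whose human counterpart is mutated in a congenital myopathy, had 0.675, 0.539, 1.15 and 1.21 CPM in WT livers and 0.597, 0.834, 1.09 and 1.28 in QKO livers. Its hearts had 6.08, 6.34, 6.29 and 6.18 CPM in WT and 6.00, 5.76, 6.17 and 6.31 in QKO, again with no overlap. The log2 difference of Selenon was 2.80 in WT (SE 0.2497, adjusted p = 1.55e-06, edgeR) and 2.71 in QKO (SE 0.213). Selenos, Selenof, Selenoi and Selenok were lower in heart, with log2 differences of -1.81, -1.62, -1.09 and -1.04 in WT. Selenot was not called, with 41.5 ± 4.58 CPM in WT liver and 39.7 ± 3.84 in WT heart. Of the small redox-fold and mitochondrial members, Selenoo was lower in heart with a log2 difference of -2.46 (SE 0.161) in WT, Selenoh was not called (-0.04, SE 0.204), and Selenow was lower (-0.47, SE 0.139, adjusted p = 0.00976, edgeR). The Selenow call was lost under upper-quartile scaling in WT (adjusted p = 0.0808) and in QKO (0.240), and in QKO also without QKO heart 2 (0.0528), without QKO heart 3 (0.0683) or with a minimum of 1 CPM in 4 libraries (0.0542).

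The genes that make selenocysteine were mostly lower in heart. Synthesis starts on a serine attached to the tRNA, which Pstk phosphorylates and Sepsecs converts with selenophosphate from Sephs2, while Scly recovers selenium from free selenocysteine. Sephs2 (chr7:127271879-127274055) had 351, 467, 363 and 381 CPM in WT livers and 509, 436, 594 and 410 in QKO livers. In hearts it had 11.1, 12.6, 10.6 and 9.16 CPM in WT and 10.3, 11.8, 9.52 and 9.39 in QKO. The tissues were far apart, with a log2 difference of Sephs2 of -5.16 (SE 0.200, adjusted p = 3.38e-09, edgeR) in WT and -5.54 (SE 0.182) in QKO. Scly, Sepsecs and Sephs1 differed by -3.13 (SE 0.219), -2.82 (SE 0.171) and -1.64 (SE 0.132) in WT. Pstk was the exception: it had 7.18, 6.74, 5.80 and 6.95 CPM in WT livers and 15.2, 14.4, 15.5 and 13.7 in WT hearts. In QKO it had 6.48, 6.31, 7.06 and 7.54 CPM in livers and 15, 14.4, 13.7 and 13.9 in hearts. Every heart was above every liver for Pstk, with log2 differences of 1.15 (SE 0.107, adjusted p = 2.18e-06, edgeR) in WT and 1.09 (SE 0.104) in QKO. Of the 7914 exon bases of Pstk, 4652 overlap Ikzf5 on the opposite strand, which was higher in heart by 1.41 in WT. The part of Ikzf5 reads in the Pstk counts was not tested.

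The insertion factors differed less by their median, -0.79 in WT against -2.82 for the synthesis genes, though Eefsec differed more than Sephs1 and Pstk. The SECIS-binding protein Secisbp2 was at 5.92 ± 0.791 CPM in WT liver and 5.53 ± 0.679 in WT heart, and was not called (log2 difference -0.08, SE 0.142). Its paralog Secisbp2l differed by -0.82 (SE 0.134), the tRNA-associated protein Trnau1ap by -0.77 (SE 0.141) and the elongation factor Eefsec by -2.12 (SE 0.184) in WT. All 3 passed, as did 72.5% of all genes tested. The selenium-binding proteins, which bind selenium without selenocysteine, were lower in heart. Selenbp2 had 13, 16.8, 5.94 and 10.2 CPM in WT livers and 15.6, 7.80, 23.8 and 15.1 in QKO livers. Its hearts had 1.05, 0.83, 0.848 and 1.03 CPM in WT and 1.12, 1.09, 0.931 and 1.14 in QKO, below every liver. The log2 difference of Selenbp2 was -3.57 (SE 0.304, adjusted p = 1.07e-06, edgeR) in WT and -3.82 (SE 0.298) in QKO, and that of Selenbp1 was -2.46 (SE 0.260) and -2.40 (SE 0.124). Lrp2, the large endocytic receptor that takes up selenoprotein P in kidney, was at 0.42 ± 0.381 CPM in WT liver and 0.246 ± 0.165 in WT heart and was not called there. In QKO it passed with -2.13 (SE 0.755, adjusted p = 0.0219), and the call was lost without QKO liver 4 (0.0557), QKO heart 1 (0.0601) or QKO heart 3 (0.0507).

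The genotype comparison asked whether loss of the Msr genes came with altered transcripts of the members. No member passed the threshold in liver: 0 of 30 tested (Gpx2, Dio2 and Dio3 were too low), against 0.0846% of all genes (edgeR quasi-likelihood test, adjusted over all genes). At an unadjusted p under 0.05 there were also 0 in liver, against 3.29% of all genes, and DESeq2 called 0. In heart 0 of 30 tested passed (Gpx2, Dio3 and Lrp2 were too low), against 0.165% of all genes, with DESeq2 also at 0. At an unadjusted p under 0.05 there were 2 in heart, Dio2 and Selenow, against 7.19% of all genes. The median log2 change of QKO over WT was 0.04 in liver, against -0.01 over all genes, and 0.04 in heart, against 0.00. The 95% interval of the log2 change lay within ±1 for 28 of 30 members in liver, all but Lrp2 and Selenbp2, and for 28 of 30 in heart, all but Dio1 and Dio2. Its median half-width was 0.38 in liver and 0.22 in heart. These are unadjusted intervals, and a change must exceed them to pass after adjustment over all genes.

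**Figure D4:**
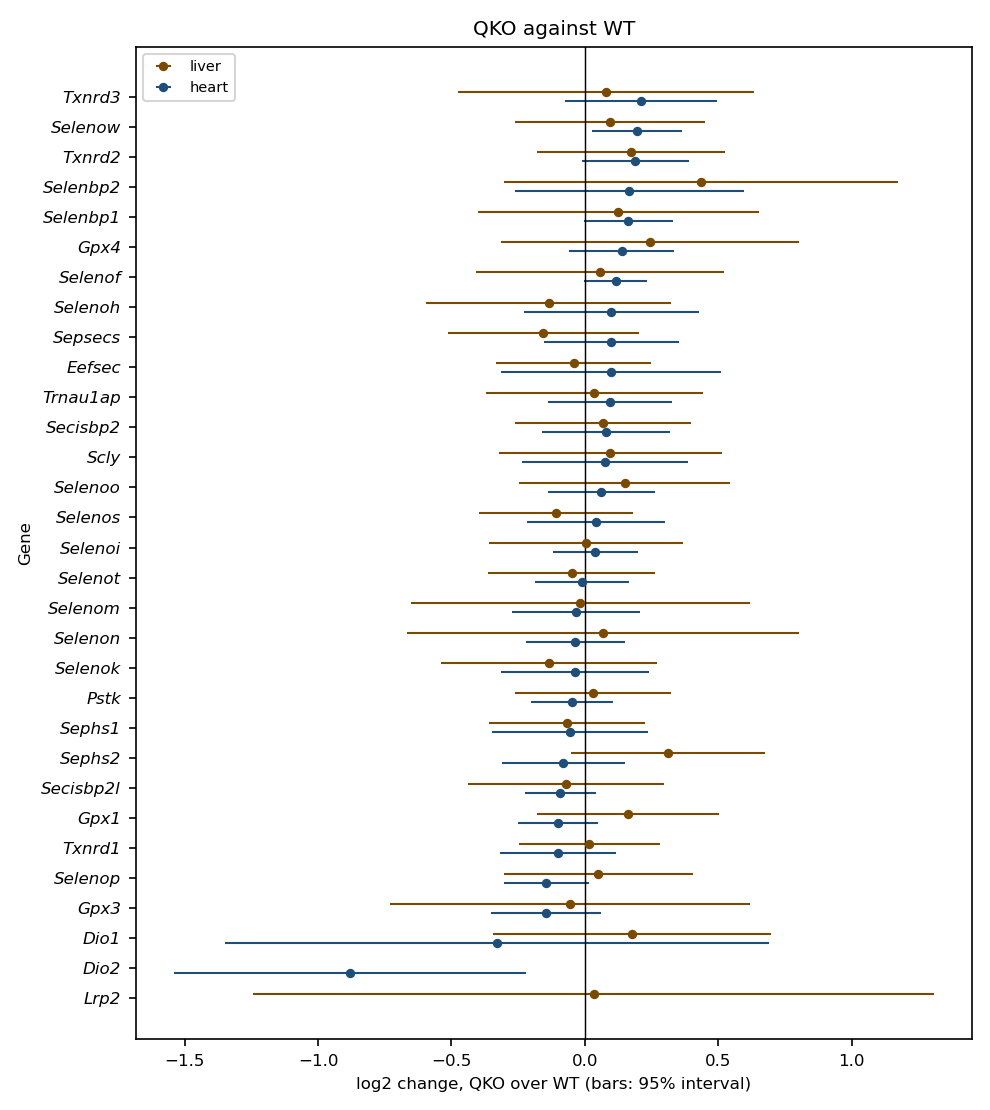
Log2 change of QKO over WT for each member tested, in liver and in heart, with 95% intervals. The interval of 1 of the 60 estimates lies wholly below 0 (Dio2, heart) and that of 1 wholly above 0 (Selenow, heart), and 0 passed after adjustment over all genes.

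In liver the 4 members with the smallest unadjusted p were Sephs2, Selenbp2, Txnrd2 and Gpx1. Sephs2, with the library values given above, changed by 0.31 (SE 0.166, 95% interval -0.05 to 0.68, unadjusted p = 0.0855, edgeR), and WT and QKO livers overlapped. Selenbp2 changed by 0.44 (SE 0.337, 95% interval -0.30 to 1.17), and Gpx1 by 0.16 (SE 0.157, 95% interval -0.18 to 0.50). Txnrd2 had 14.4, 20, 15.8 and 14.1 CPM in WT livers and 19.8, 20.3, 19.1 and 13.7 in QKO livers, a change of 0.17 (SE 0.161). The adjusted p was 0.9997 for each of these 4. With all 70 relabellings of the libraries, a two-sided exact permutation test gave p = 0.0857 for Sephs2, 0.400 for Selenbp2, 0.457 for Txnrd2 and 0.257 for Gpx1.

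In heart Dio2 had the smallest unadjusted p. WT hearts 1, 2 and 4 were at 0.906, 0.788 and 1.02 CPM and WT heart 3 was at 1.87, while the QKO hearts ran from 0.499 to 0.837 CPM, so that the groups overlapped. The log2 change of Dio2 was -0.88 (SE 0.307, 95% interval -1.54 to -0.22, unadjusted p = 0.0128, adjusted p = 0.655, edgeR), and without WT heart 3 it was -0.57 (adjusted p = 0.876). Selenow had 19.6, 15.9, 16.6 and 18.6 CPM in WT hearts and 21, 19.9, 18.8 and 21.7 in QKO hearts, with 1 WT heart above the lowest QKO heart. Its log2 change was 0.20 (SE 0.0787, 95% interval 0.03 to 0.37, unadjusted p = 0.0269, adjusted p = 0.660, edgeR). Selenbp1 had 24.5, 24.1, 20 and 23.6 CPM in WT hearts and 23.7, 27.5, 24.9 and 27.4 in QKO hearts, a log2 change of 0.16 (SE 0.0777, unadjusted p = 0.0558). Selenof, a partner of a glycoprotein folding sensor in the endoplasmic reticulum, had 30.0, 29.7, 30.7 and 29.6 CPM in WT hearts and 32.1, 31.6, 33 and 33.3 in QKO hearts. It was the 1 member of 30 whose groups did not overlap in heart, against 4.67% of all genes, and 0 members did so in liver, against 2.12%. The log2 change of Selenof was 0.12 (SE 0.0552, unadjusted p = 0.0567, adjusted p = 0.706, edgeR).

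The two-sided exact permutation test gave p = 0.0286 for Selenof in heart, the smallest that 70 relabellings allow, p = 0.0571 for Dio2 and Selenow and p = 0.114 for Selenbp1. The 8 genes tested this way in both tissues had been chosen by their unadjusted p in the same libraries, so these values describe the libraries, and that of Selenof restates that its groups did not overlap. Without WT heart 4 and QKO heart 4, which had the least ribosomal RNA, 0 members passed, and the changes were -0.81 for Dio2, 0.19 for Selenow and 0.10 for Selenof. The log2 change of Selenop in heart was -0.14 (SE 0.0742, unadjusted p = 0.0728, adjusted p = 0.728, edgeR). The hepatocyte marker sum was 307.1, 206.8, 139.5 and 50.9 CPM in WT hearts and 164.1, 112.1, 87.3 and 67.8 in QKO hearts, and its part in the Selenop value was not tested.

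**Figure D5:**
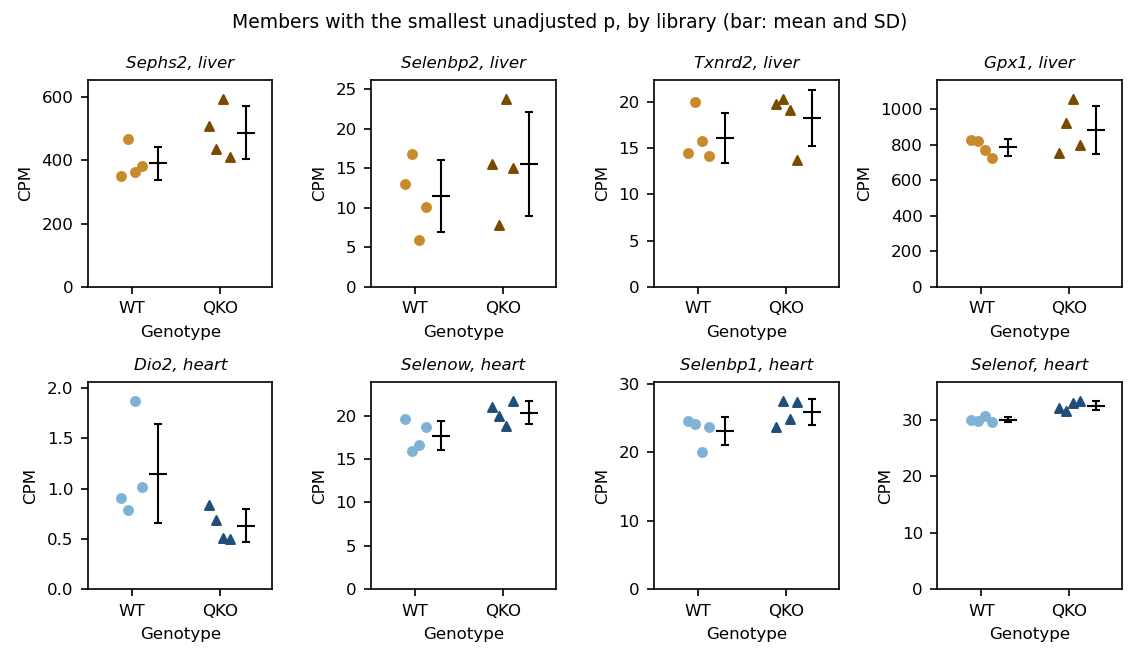
CPM in each library for the 4 members with the smallest unadjusted p in liver (upper row) and in heart (lower row), WT and QKO, with mean and SD; each axis starts at 0. WT and QKO overlap in 7 of the 8 panels, and Selenof in heart is the exception.

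The transcripts best known to fall when selenium is short are those of Gpx1, Selenow and Selenoh. In liver their log2 changes were 0.16, 0.09 and -0.14, and in heart -0.10, 0.20 and 0.10. Of the 3, 0 passed in either tissue, against 0.0846% of all genes in liver and 0.165% in heart. The members with a selenocysteine codon had a median change of 0.06 in liver (19 tested) and -0.02 in heart (20 tested), and those without one had 0.03 (11 tested) and 0.09 (10 tested). Of the genes with the codon more than 50 bases before the last junction, 12 were tested in each tissue, with medians of 0.06 in liver and -0.02 in heart. The others, 7 in liver and 8 in heart, had medians of 0.02 and 0.00. The difference of the QKO effect between the tissues was tested as an interaction over all 16 libraries. It passed for 0 of 31 members, against 0.00511% of all genes, with 0 members at an unadjusted p under 0.05 (4% of all genes). DESeq2 also called 0. The lowest adjusted p of a member was 0.9999 (edgeR).

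A list of 29 other genes of the pathway was read in the same fits. It held the selenoproteins Msrb1 and Selenov, peroxidases with cysteine in place of selenocysteine, tRNA charging and modification enzymes, other mRNA-binding proteins, partners such as thioredoxins, and genes of thyroid hormone action. In liver 0 of 26 tested passed, against 0.0846% of all genes. Their log2 changes were below 0 for 15 and above 0 for 11, where 48.8% of all genes were above 0. In heart 1 of 25 passed, against 0.165% of all genes. That gene was Msrb1, one of the 4 Msr genes, whose hearts had 15.8, 16.1, 15 and 13.8 CPM in WT and 18.5, 20.6, 21.3 and 23.6 in QKO. Every QKO heart was above every WT heart, by a log2 change of 0.48 (SE 0.0818, adjusted p = 0.0337, edgeR). In liver Msrb1 had 107, 103, 82.4 and 102 CPM in WT and 66.0, 69.8, 103 and 63.4 in QKO, a change of -0.39 (SE 0.175, adjusted p = 0.9997), with QKO liver 3 among the WT values. The reads of a targeted gene can come from parts that an allele leaves in place, and which part of Msrb1 the counts cover was not tested.

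Among the genes of thyroid hormone action, which bear on the deiodinases, 0 of 8 passed in either tissue. Of all genes, 0.0846% passed in liver and 0.165% in heart. The groups did not overlap for Klf9 in liver and for Hr in heart, against 2.12% of all genes in liver and 4.67% in heart. Klf9, a transcription factor induced by thyroid hormone and by glucocorticoids, had 25.5, 26.4, 26.3 and 24.4 CPM in WT livers and 41.7, 41.5, 36.4 and 39.5 in QKO livers. The groups were separate, with a log2 change of 0.62 (SE 0.112, unadjusted p = 1.367e-04, adjusted p = 0.105, edgeR). In heart Klf9 was at 48.1 ± 3.48 CPM in WT and 50.1 ± 2.30 in QKO, a change of 0.06. The difference between the tissues in the QKO effect on Klf9 was -0.57 (SE 0.126) and did not pass (adjusted p = 0.491, edgeR interaction). Hr, a corepressor that thyroid hormone induces in brain, had 7.16, 5.47, 7.70 and 5.76 CPM in WT hearts and 8.96, 9.87, 10.7 and 10.2 in QKO hearts. These groups were separate too, with a log2 change of 0.61 (SE 0.114, adjusted p = 0.0625, edgeR), while in liver the change of Hr was 0.21 (SE 0.623). The other 2 genes known to respond to thyroid hormone were Thrsp, at 0.23 in liver and 0.00 in heart, and Me1, at 0.19 in liver and -0.11 in heart. Of the other genes with the smallest unadjusted p, Ncl changed by -0.35 in liver (SE 0.176) and Sars by 0.19 in heart (SE 0.0853). Between tissues, 24 of 26 of these pathway genes passed in WT, 8 higher and 16 lower in heart, and likewise 24 of 26 in QKO, against 72.5% of all genes in WT (35.6% higher, 36.9% lower) and 74.3% in QKO.

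The annotation limits several of these values. Exons of 8 members overlap exons of a gene on the opposite strand, and whether the counting used strand is not given in the sources used here. Gm44729, which overlaps 792 bases of Sephs2, had 35.8% to 40.8% of the Sephs2 count in the livers and 32.2% to 41.9% in the hearts, and its own tissue difference in WT was -5.27. Further such pairs were Selenop with Ccdc152, Dio2 with Gm26512, Selenoo with Tubgcp6, Pstk with Ikzf5, Scly with Gm17090 and Eefsec with Gm44264. Txnrd2 also shares 176 exon bases with a gene on the opposite strand, so its tissue difference carries the same limit. Ikzf5 was higher in heart by 1.41 on the log2 scale in WT, in the direction of Pstk, with which it shares 4652 bases. Named pseudogenes exist for Gpx2, Gpx4, Selenok and Selenot, and Selenbp1 and Selenbp2 are close paralogs, so reads could be split between copies. Sephs1 lies 14.5 Mb from Msrb2 on chromosome 2, the 1 member within 20 Mb of a targeted gene.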

How the data were processed

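Raw counts per Ensembl gene were deposited by the authors, as whole numbers for 16 libraries. Per the submitters' processing notes, reads went through CASAVA, bcl2fastq, FastQC, cutadapt, HISAT2 (mm10), featureCounts and limma; versions, the annotation release and the strand setting are not given in the sources used here. Per the labels' protocols, libraries were stranded total RNA after ribosomal depletion, sequenced as pairs of 75 bp. Symbols, exons and codons came from GENCODE M21 on GRCm38, the assembly of mm10 (48349 of 48709 identifiers matched, 360 did not, 0 columns were unused).

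Each comparison was tested in edgeR 4.0.16 (R 4.3.3; glmQLFit and glmQLFTest) after TMM scaling and the edgeR expression filter, with Benjamini-Hochberg adjustment over all genes tested and a threshold of 0.05. The SE is the log2 change divided by the square root of F. Each tissue was fitted alone for QKO against WT. Permutation tests used log2(CPM + 0.1). Scripts were tested on simulated data. Alternatives included DESeq2 1.42.0 and limma-voom (limma 3.58.1). Members and lists were chosen with earlier results of these data known. Every member is accounted for; values in every library are given for members past the threshold in QKO against WT, otherwise for the 4 with the smallest unadjusted p per tissue, and for the 5 highest and 5 lowest tissue differences. Of the other pathway genes, those past the threshold and up to 3 per list and tissue with the smallest p are named, as are the deviating values listed after the report.

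Liver and heart are paired by animal in the labels; their deviations from group means correlated across genes at 0.0618 to 0.184 in the 8 animals. Replicates within a group are separate animals, and the genotype tests within a tissue set a difference against the spread between these animals. In the tissue and interaction fits, liver and heart of the same animal entered as separate libraries without a block. Among 24 pairs of libraries within groups none was a copy (chi-square per gene 26.3 or higher). Protein-coding depth was 9.21 M counts or more per library. The values of an overlapping gene are not reported here.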

Additional observations from a re-analysis of the deposited data

Results flagged for a closer look

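Within each group of 4 libraries, the highest and the lowest value of each member were compared with the nearest other library (Dixon's test at its 95% critical value). This was done for 126 sets of a member and a group, and 6 had a library far from the others, where chance alone gives about 1 in 20, or 6.3. Gpx4 was at 217.7 CPM in QKO liver 3 and at 109.3 to 114.0 CPM in the other QKO livers, and without that library its QKO change in liver was -0.07 in place of 0.24. Dio2 was at 0.4754 CPM in WT liver 4, from 31 counts, and at 0 to 0.022 CPM in the other WT livers. Selenoi, an enzyme of phosphatidylethanolamine synthesis, was at 15.49 CPM in WT liver 4 and at 23.57 to 24.79 CPM in the others. Secisbp2 was at 4.52 CPM in WT heart 2 and at 5.715 to 5.939 CPM in the others. Eefsec was at 7.005 CPM in QKO liver 4 (others 8.524 to 8.786) and at 1.709 CPM in QKO heart 1 (others 2.145 to 2.18). Of the 6 values, 2 were high and 4 low, and WT liver 4 held 2 of them.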

How the results depend on the processing

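The count of members past the threshold in QKO against WT was 0 in liver, heart and the interaction under all alternatives run (19, 19 and 27), and their lowest adjusted p was 0.516, 0.425 and 0.509. Leaving out each library in turn gave 0 to 0 in all 3. The count at an unadjusted p under 0.05 was less stable, from 0 to 2 in liver, 0 to 6 in heart and 0 to 4 in the interaction. In the fits of the report, 3.29%, 7.19% and 4% of all genes were under that limit. In the tissue comparison the count ran from 25 to 26 in WT (26 to 26 when libraries were left out in turn) and from 24 to 28 in QKO (25 to 27). No called member changed sign; of those not called, 23 of 30 in liver and 9 of 30 in heart changed sign under some alternative. Calls were lost for Selenow in WT and for Selenow, Txnrd3 and Lrp2 in QKO, as given in the report. Upper-quartile scaling moved the median tissue difference of all genes from -0.02 to 0.16 in WT and from 0.01 to 0.20 in QKO. The number of genes called over the whole table varied more: 15 in liver, but 50 with DESeq2, 44 with all 16 libraries in 1 fit and 9 with protein-coding genes alone; 28 in heart, but 64 with DESeq2, 102 without a filter, 16 with all 16 libraries in 1 fit and 18 without QKO heart 2 or 4. For the interaction it was 1, but 13 with DESeq2, 5 without WT livers 3 and 4, 3 without WT liver 4, 2 without a filter and without QKO liver 1 or QKO heart 4, and 0 with limma-voom or with the animal as a block. The labels do not state that replicate numbers pair WT with QKO animals, so the numbers were not taken as pairs in either tissue. Deviations from the group means of libraries that share a replicate number across genotypes correlated at 0.0774, -0.00618, -0.117 and 0.149 for the livers. For the hearts the values were 0.162, 0.159, 0.0664 and 0.478, where 7 of 8 libraries correlated best with their own number (2 of 8 in liver). With the replicate number as a block, 0 members passed in liver (16 genes in all) and 0 in heart (50 genes), and 42 heart genes passed with the animal number series as a term. With the animal as a block, 26 members passed between tissues in WT, 27 in QKO, and 0 in the interaction, so that the block changed no call of a member. Depth limits the low members most: Gpx2, Dio2, Dio3 and Lrp2 could not be tested in 1 or both tissues.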

Other observations

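The spread between animals differed by tissue. Over members with a mean of 1 CPM or more, the median coefficient of variation was 17.0% in WT liver (27 members), 15.6% in QKO liver (27), 10.3% in WT heart (28) and 7.51% in QKO heart (28). Selenbp2 varied most in both livers, at 39.9% in WT and 42.1% in QKO, and Gpx1 least in WT liver, at 5.82%. In WT heart the coefficient was highest for Dio2, at 43.0%, and lowest for Selenof, at 1.64%.

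The base after the selenocysteine codon, part of the context in which a stop codon is read, was G at 14 of the 32 sites, C at 11, A at 5 and T at 2. The first codon of Selenop is followed by T and by a cysteine codon 3 codons later, and the other 9 by G, C or A.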
